A study of Mus musculus with 18 samples.

Results

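The muscle transcriptome of mice without PGC-1β was compared with that of wildtype mice after 24 h without food, in 5 MKO and 4 WT libraries, which are 9 of the 18 libraries of the series and were chosen by their genotype and feeding labels. MKO mice are C57Bl6/J animals whose loxP-flanked Ppargc1b allele is recombined by Cre under the human skeletal actin promoter, so that the deletion is directed to skeletal muscle fibers and other cells of the muscle keep the gene. WT mice carry the floxed allele without Cre. All were adult males on chow, each library is a biological replicate of its own, and the other 9 libraries are 5 MKO and 4 WT muscles of fed mice. Poly(A) RNA was sequenced as single reads. By its labels the muscle is quadriceps, while the paper gives Gastrocnemius.

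PGC-1β is a transcriptional coactivator. It binds no DNA itself but docks on nuclear receptors and other factors, among them the estrogen-related receptors ERR, NRF1 and GABP, and raises the transcription of genes for mitochondrial respiration. In skeletal muscle it is a close relative of PGC-1α, which shares many of these targets. A fasting muscle breaks down its own protein to supply amino acids, through ubiquitin ligases, the proteasome and autophagy, and burns fat in place of glucose.

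The deposited values are TPM, the share of each gene's transcripts in a library after correction for gene length. Read depth is unknown from them and no counting error can be given. Transcripts of the mitochondrial genome took 65.5, 61.5, 67.9, 67.9 and 66.1% of all TPM in the MKO libraries, against 70.8, 73.5, 73.3 and 81.3% in the WT libraries. No MKO library reached the lowest WT library. The difference was -8.95 percentage points (exact permutation, two-sided, p = 0.00794, which is the lowest possible for 5 and 4 libraries), or -6.76 without WT replicate 4 (exact permutation p = 0.0179, again the lowest possible). Without the short genes mt-Atp8, mt-Nd4l, mt-Nd3 and mt-Nd6 and the tRNA genes the share averaged 40.8% in MKO and 46.1% in WT libraries, a difference of -5.31 points (exact permutation p = 0.00794). Since a smaller mitochondrial share makes every other TPM larger, the libraries were scaled to the same median of log values before testing. All levels below are scaled TPM, and all changes are MKO minus WT on the scale of log2(scaled TPM + 0.1) and relative to the median gene, which understates the changes of low genes. A gene was called at an adjusted p under 0.05 with limma.

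WT replicate 4 stood apart from the other WT muscles. It had the largest mitochondrial share, the fewest genes at 0.5 TPM or more (10729, against up to 11622 in the other 8 fasted libraries), and the summed level of slow fiber genes was 1222.5 scaled TPM there, against 149 to 464 in the MKO libraries and 108 to 478 in WT replicates 1 to 3. All 11 slow fiber genes measured were above the other WT libraries in it, by a median of 2.30 on the log2 scale. Muscle of another fiber makeup, or another part of the muscle, cannot be told apart from a response of that mouse, so results are given with and without it. Acta1, the actin of skeletal muscle, was abundant in every library, at 23630 to 27110 scaled TPM in MKO and 17897 to 22555 in WT libraries.

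Ppargc1b itself was a low transcript. Its level over the whole gene was 0.905, 0.354, 1.06, 0.814 and 0.722 scaled TPM in MKO libraries, against 1.16, 1.2, 0.779 and 2.10 in WT libraries. The groups overlapped through MKO replicates 1, 3 and 4 and WT replicate 3, and the change of -0.68 did not pass the test (adjusted p = 0.275, and 0.439 without WT replicate 4). A value per gene does not separate the deleted part from the rest of the transcript, so this level does not check the deletion. Ppargc1a, the gene of PGC-1α, had 6.17, 5.51, 8.49, 10.2 and 19.4 scaled TPM in MKO and 4.97, 5.23, 4.28 and 7.46 in WT libraries. The highest value was in MKO replicate 5, the groups overlapped, and the change of 0.73 was not called (adjusted p = 0.261), although in the TPM as deposited it was (1.05, adjusted p = 0.0305). Among 17 PGC-1 coactivators and partner factors none was called with limma (unadjusted p under 0.05 in 1 higher and 3 lower), including Esrra, the gene of ERRα (-0.38, adjusted p = 0.253).

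In all, 219 of 11499 genes tested differed between fasted MKO and WT muscle (1.9%), 123 higher in MKO (1.07%) and 96 lower (0.835%). Without WT replicate 4 the test called 420 genes (3.65%), 190 higher (1.65%) and 230 lower (2%), and 209 genes were called in the same direction by both (95.4% of the 219 and 49.8% of the 420). In the TPM as deposited, in which the median gene is 0.31 higher in MKO (0.21 without WT replicate 4), 2034 genes were called (17.7%), 2010 higher (17.5%) and 24 lower (0.209%). Of the 219 genes, 68 (40 higher and 28 lower) were called whichever library was left out, and all 219 kept their sign. The median size of their change was 0.67 on the log2 scale, against 0.14 over all genes tested, and 51 changed at least 2-fold, 41 of them higher and 10 lower. The groups did not overlap in 218 of the 219, against 7.76% of all genes tested (4.24% with every MKO library above and 3.52% with every one below).

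Car3 (carbonic anhydrase III, chr3:14863512-14872523, GRCm38), an abundant cytosolic enzyme of muscle that hydrates CO2, had 1759, 1832, 1198, 1414 and 1404 scaled TPM in MKO muscles, against 600, 766, 659 and 516 in WT muscles. Even the lowest MKO library was above every WT library. Car3 rose by 1.26 (SE 0.15, adjusted p = 0.00319, and 1.16 without WT replicate 4, adjusted p = 0.00278).

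Gamt (chr10:80258151-80261012), which makes creatine from guanidinoacetate, had 7.21, 7.29, 6.71, 5.42 and 6.21 scaled TPM in MKO muscles, against 2.23, 2.54, 3.28 and 1.94 in WT muscles. The lowest MKO value lay above the highest WT value, and the change was 1.38 (SE 0.15, adjusted p = 0.00183, and 0.0016 without WT replicate 4). Gamt was 1 of 2 called genes among 12 of creatine and iron metabolism, 1 higher and 1 lower (1.07% and 0.835% of all genes). The muscle creatine kinase Ckm averaged 13940 ± 1069 scaled TPM in MKO (SD, n = 5) and 10695 ± 1846 in WT muscle (SD, n = 4) and was not called (adjusted p = 0.206).

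Plin3 (chr17:56277476-56292873), a coat protein of lipid droplets, had 40.1, 40.6, 33.8, 34.6 and 33.2 scaled TPM in MKO muscles, against 20.0, 20.0, 21.9 and 20.9 in WT muscles. WT muscles spread little around their mean of 20.7 ± 0.883 (SD, n = 4), and all MKO muscles were above them (0.81, SE 0.09, adjusted p = 0.00183). Gpx3 (chr11:54902453-54910377), a secreted glutathione peroxidase, had 236, 206, 172, 176 and 177 scaled TPM in MKO and 104, 115, 111 and 112 in WT muscles. Its level was highest in MKO replicates 1 and 2, and the change was 0.80 (adjusted p = 0.00411). It was the only one called of 23 antioxidant enzymes, against 1.07% of all genes called higher. Their median change was -0.13, and 0.19 in the TPM as deposited. Without WT replicate 4 a further 4 of them were called, all lower, against 2% of all genes called lower.

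Gfer (chr17:24693187-24696156), a sulfhydryl oxidase of the mitochondrial intermembrane space that keeps its protein import running, had 25.4, 27.2, 25.1, 26.2 and 26.9 scaled TPM in MKO muscles, against 16.5, 14.1, 15.2 and 10.9 in WT muscles. MKO muscles were alike (26.1 ± 0.922, SD, n = 5), and WT replicate 4 was the lowest of all. The change was 0.89 (adjusted p = 0.00329) and 0.77 without that library (adjusted p = 0.000876). Maf (chr8:115682942-115707794), a transcription factor of the basic leucine zipper family, had 32.1, 34.6, 42.5, 39.9 and 43.8 scaled TPM in MKO and 25.8, 21.3, 20.9 and 19.1 in WT muscles, without overlap (0.82, adjusted p = 0.00741). Plcd4, a phospholipase C, averaged 10.8 ± 1.33 scaled TPM in MKO and 5.88 ± 1.22 in WT muscles (0.88, adjusted p = 0.0125). Enho, which encodes the peptide hormone adropin (0.81), and Thrsp, a nuclear protein of lipogenesis (0.76), rose as well, and the calls of all genes of this paragraph held without each of the 9 libraries.

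Other increases lost their calls without some single libraries, while their direction stayed the same. A test with 1 library fewer is weaker, and without MKO replicate 4 only 85 genes were called in all. Ppp1r1a, an inhibitor of protein phosphatase 1 that protein kinase A switches on, averaged 40.6 ± 5.74 scaled TPM in MKO and 20.6 ± 5.53 in WT muscles (1.0, adjusted p = 0.0164), and lost its call without WT replicate 2 (adjusted p = 0.06). The metallothionein gene Mt2 averaged 42.0 ± 7.65 in MKO and 23.2 ± 4.71 in WT muscles (0.86, adjusted p = 0.0223) and lost its call without MKO replicate 2 or WT replicate 2 (adjusted p = 0.0525 and 0.0743). Mt2 shares sequence with Mt1, so reads may be split between them. The largest increases by the naming rule given below further held Pla2g7, which degrades platelet-activating factor (1.07, adjusted p = 0.0257), the elongation factor Ell2 (0.83), the tRNA synthetase scaffold Aimp2 (0.79) and the mitochondrial carrier Sfxn3 (0.77), each of which lost its call without 5 to 7 of the 9 libraries, MKO replicates 4 and 5 and WT replicate 1 among them (adjusted p then up to 0.118). With each library left out in turn, the changes of the genes of this paragraph stayed between 0.62 (Aimp2) and 1.26 (Pla2g7). Aimp2 overlaps Eif2ak1 on the other strand, and the sources used here do not say whether counting used strand.

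Among the genes that met the naming rule for the largest changes, given below, Dusp10 had the largest decrease. Dusp10 (chr1:184013302-184075636), a phosphatase that switches off the stress kinases p38 and JNK, had 7.56, 2.50, 6.30, 6.13 and 3.87 scaled TPM in MKO muscles, against 18.9, 11.4, 15.8 and 18.1 in WT muscles. Every MKO muscle was below every WT muscle, with a fall by 1.66 on the log2 scale (SE 0.29, adjusted p = 0.0164, and 0.0228 without WT replicate 4). Its call was lost without WT replicate 1 (adjusted p = 0.0513). It was the only one called of 13 MAP kinase phosphatases, against 0.835% of all genes called lower. Their median change was -0.27, and 0.04 in the TPM as deposited.

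Slc30a2 (chr4:134343181-134354484), a zinc transporter, had 3.30, 2.89, 3.41, 2.62 and 2.09 scaled TPM in MKO muscles, against 8.62, 8.96, 12.5 and 4.91 in WT muscles. WT replicate 4 was the lowest WT muscle and still above all MKO muscles. The change was -1.53 (SE 0.23, adjusted p = 0.0107) and -1.78 without that library (adjusted p = 0.000876). Slc40a1 (chr1:45908068-45926523), ferroportin, the exporter of iron from cells, had 12, 11.8, 12.5, 14.2 and 11.2 scaled TPM in MKO and 26.2, 24.2, 18.9 and 24.7 in WT muscles, again without overlap (-0.92, adjusted p = 0.00279).

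Rnf115 (chr3:96727664-96791638), an E3 ubiquitin ligase, had 33.0, 29.9, 34.0, 34.9 and 37.3 scaled TPM in MKO muscles, against 54.3, 60.4, 65.3 and 71.9 in WT muscles. Every MKO muscle was below every WT muscle (-0.89, SE 0.10, adjusted p = 0.00192). Slc35f5 (chr1:125560595-125595820), of the nucleotide sugar transporter family, had 9.97, 9.69, 10.8, 10.2 and 13.2 scaled TPM in MKO and 19.3, 20.8, 18.9 and 20.1 in WT muscles (-0.88, adjusted p = 0.00208). Mid1ip1 (chrX:10715013-10719690), a partner of acetyl-CoA carboxylase that promotes its polymerization, had 5.76, 4.72, 6.64, 4.66 and 4.33 scaled TPM in MKO and 11.3, 12.7, 17.5 and 8.68 in WT muscles. No library of either group reached the other, and the change was -1.22 (adjusted p = 0.0109).

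The calls of Slc30a2, Slc40a1, Rnf115, Slc35f5 and Mid1ip1 held without each of the 9 libraries. So did those of the protease gene Adamts1 (-0.97), the TGF-β-induced factor Klf10 (-0.91), the growth arrest gene Gadd45b (-0.89), the transcriptional coregulator Ifrd1 (-0.86) and the amylase gene Amy1 (-0.89), which shares sequence with other amylase genes and overlaps Rnpc3. In the TPM as deposited Ifrd1 was not called (adjusted p = 0.0523).

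**Figure D1:**
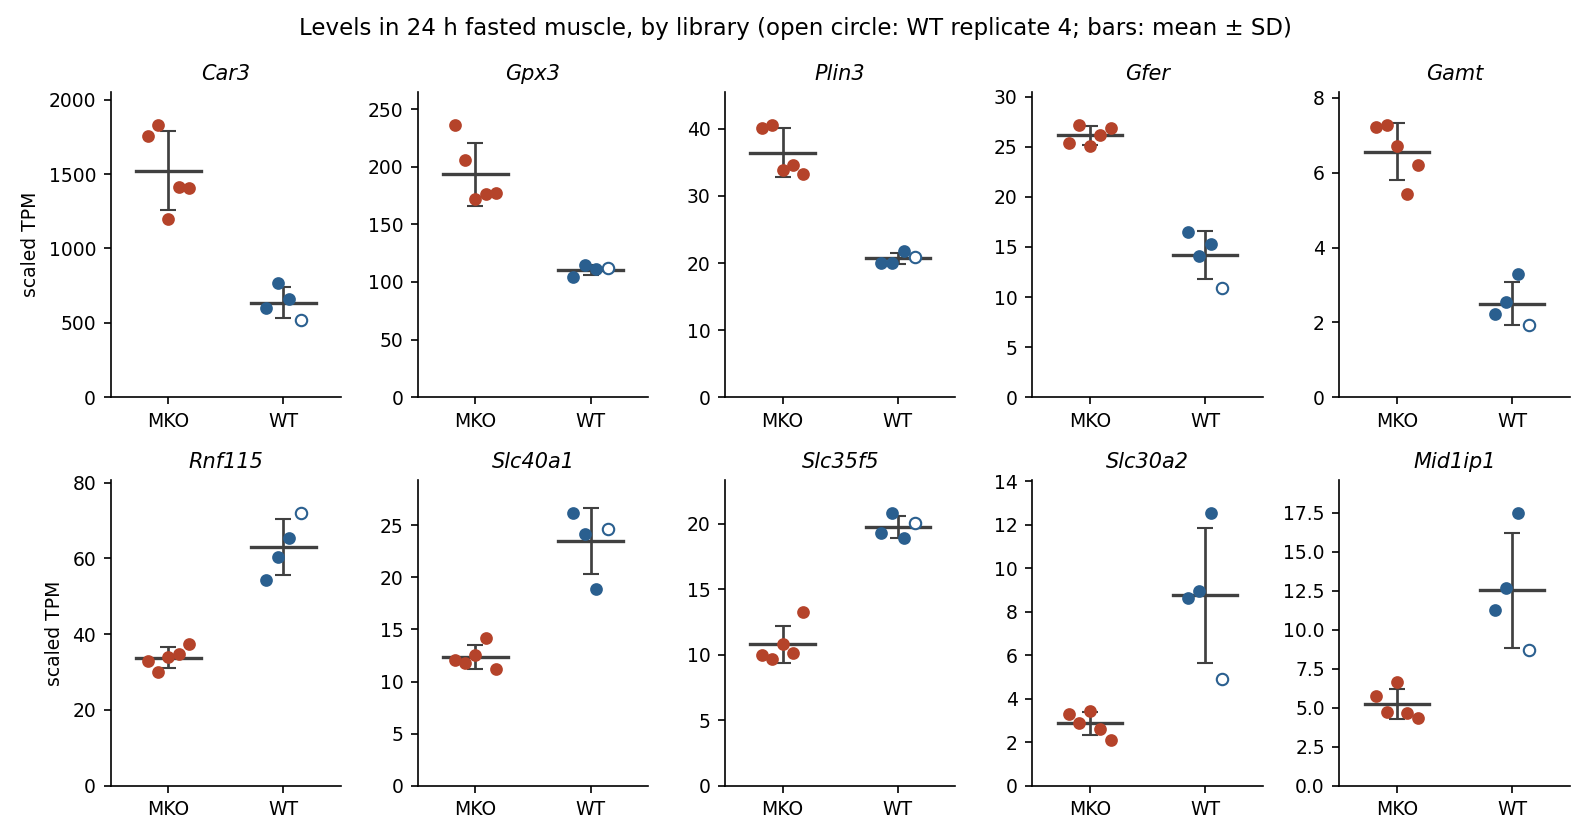
Scaled TPM of 5 genes higher and 5 genes lower in fasted MKO muscle, each on its own axis from 0. Points are libraries (5 MKO at the left, 4 WT at the right, WT replicate 4 open), and bars give the mean ± SD. The groups do not overlap in any of the 10 panels, as in Car3 with 1198 or more in MKO and 766 or less in WT.

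Musk (chr4:58285960-58374303), the receptor kinase that assembles the neuromuscular junction, had 4.00, 3.93, 3.44, 5.29 and 5.66 scaled TPM in MKO muscles, against 12.4, 11.8, 21.8 and 6.23 in WT muscles. WT replicate 4 was close to the MKO muscles, and the change was -1.42 with it (adjusted p = 0.033) and -1.73 without it (adjusted p = 0.00285). Musk was the only one called of 15 genes of the neuromuscular junction and denervation, against 0.835% of all genes called lower. Of these 15 genes 8 lay above 0 and 7 below (median 0.03). Mss51 (chr14:20482867-20496901), a muscle gene tied to mitochondrial respiration, had 11, 4.64, 5.47, 8.83 and 12.2 scaled TPM in MKO and 21.8, 25.7, 41.1 and 14.2 in WT muscles (-1.59, adjusted p = 0.0365). Ostn, the gene of the secreted peptide musclin, averaged 5.12 ± 0.698 in MKO and 9.61 ± 2.44 in WT muscles (-0.87, adjusted p = 0.0281). The calls of Musk, Mss51 and Ostn were each lost without 7 of the 9 libraries (MKO replicates 1, 2 and 4, WT replicates 1 and 2 and 2 more for each gene), with an adjusted p of up to 0.103. Rgcc, a regulator of the cell cycle (-0.84, adjusted p = 0.0229), lost its call without MKO replicates 2, 4 or 5 or WT replicate 2 (adjusted p up to 0.0758). Neither Ostn (-0.55, adjusted p = 0.0895) nor Rgcc (-0.52, adjusted p = 0.0819) was called in the TPM as deposited.

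Genes of oxidative phosphorylation were lower in MKO muscle than the median gene, in every complex, and single subunits passed the test. The respiratory chain moves electrons from NADH (complex I) or succinate (complex II) through complex III and cytochrome c to oxygen (complex IV), and complex V makes ATP. All 36 nuclear genes of complex I measured lay below 0, with a median of -0.32 (-0.20 without WT replicate 4, with 31 of 36 below 0), but the median was 0.01 in the TPM as deposited, with 16 of 36 below 0. Of these genes 5 were called lower and none higher, against 0.835% of all genes called lower. Without WT replicate 4 the count was 8 lower and none higher, in the TPM as deposited it was 0, and as deposited without WT replicate 4 it was 3 higher and none lower. With all 9 libraries scaled, in 14 every MKO library was below every WT library (3.52% of all genes tested).

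Ndufv1 (chr19:4007384-4012806), the subunit of complex I that binds NADH, had 59.3, 61.7, 64.5, 55.8 and 61.7 scaled TPM in MKO muscles, against 97.8, 86.7, 70.4 and 111 in WT muscles. MKO muscles were close to each other and below all WT muscles (-0.58, SE 0.12, adjusted p = 0.0348). Ndufs1 (-0.62), Ndufa10 (-0.57) and Ndufb9 (-0.51) fell as well (adjusted p = 0.0401 to 0.0442). The calls of these 4 genes were lost without any of the MKO replicates or WT replicates 1 or 2 (adjusted p up to 0.11). Ndufs1 overlaps Eef1b2 on the other strand. In the TPM as deposited the 4 genes were lower in MKO too (-0.29 to -0.18) but not called.

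Complex IV held the firmest change of the chain. Cox5b (chr1:36691449-36693681), a nuclear subunit of cytochrome c oxidase, had 47.0, 52.1, 52.2, 44.9 and 46.3 scaled TPM in MKO muscles, against 85.2, 75.5, 72.3 and 114 in WT muscles. WT replicate 4 was the highest, and without it the call stood (-0.81, SE 0.13, adjusted p = 0.0109, and -0.68, adjusted p = 0.00278), as it did without each other library and in the TPM as deposited (-0.49, adjusted p = 0.0278). Cox4i1 averaged 94.6 ± 4.17 scaled TPM in MKO (SD, n = 5) and 150 ± 28.7 in WT muscles (SD, n = 4) and fell by 0.64 on the log2 scale (adjusted p = 0.0227, up to 0.0678 without MKO replicates 1, 2, 4 or 5 or WT replicate 1, and 0.0972 as deposited). It overlaps the unnamed gene model Gm20388 on its own strand. The median of 13 nuclear complex IV genes was -0.39 (-0.20 without WT replicate 4, and -0.07 as deposited), with 2 called lower, 4 lower without WT replicate 4, and 1 higher and 1 lower as deposited. Over all genes the share called lower was 0.835% with all libraries and 2% without WT replicate 4.

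In complex II, Sdha, the flavoprotein that oxidizes succinate, had 111, 127, 124, 122 and 118 scaled TPM in MKO muscles, against 185, 169, 139 and 193 in WT muscles (-0.50, adjusted p = 0.033, lost without any MKO replicate or WT replicates 1 or 2, with an adjusted p of up to 0.0943, and -0.17, adjusted p = 0.304 as deposited). In complex III, Uqcr11 fell by 0.54 on the log2 scale (adjusted p = 0.0368, called without MKO replicate 2 or WT replicates 3 or 4, and not without each of the other 6 libraries or as deposited, with an adjusted p of 0.225), and the Rieske protein gene Uqcrfs1 had a change of -0.64 that passed the test without WT replicate 4 or WT replicate 3 (adjusted p = 0.0597 with all, 0.0156 and 0.0415 without these). None of 17 nuclear genes of complex V was called in all 9 libraries with limma (13 were lower at an unadjusted p under 0.05), and 2 were without WT replicate 4, among them Atp5g3 (-0.44, adjusted p = 0.0159) and Atp5a1 (-0.37, adjusted p = 0.0414).

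The 13 protein genes of the mitochondrial genome all lay below 0, with a median of -0.53 and -0.20 in the TPM as deposited, and in 11 every MKO library was below every WT library (3.52% of all genes tested). None was called in all 9 libraries with limma (10 were lower at an unadjusted p under 0.05), and 2 were without WT replicate 4. One of these was mt-Nd5, with 23849, 20263, 25741, 26485 and 24834 scaled TPM in MKO and 33207, 34106, 33788 and 47878 in WT muscles (-0.61, adjusted p = 0.0962, and -0.48, adjusted p = 0.0393 without WT replicate 4). Its neighbor mt-Nd6 lies on the other strand and overlaps it. The 77 genes of the mitochondrial ribosome, which translates these transcripts, were near 0 instead, with a median of 0.04 and none called with limma (unadjusted p under 0.05 in 3 higher and 4 lower). Their median was 0.36 in the TPM as deposited, with 75 of 77 above 0, and 24 were called higher and none lower, against 17.5% of all genes called higher.

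Of 15 genes of the tricarboxylic acid cycle, all lay below 0 (median -0.33, and -0.01 as deposited) and 2 were called lower, against 0.835% of all genes. Idh3b (chr2:130279309-130284547), a subunit of the isocitrate dehydrogenase that uses NAD, had 46.5, 56.1, 54.2, 51.7 and 50.1 scaled TPM in MKO muscles, against 90.3, 79.7, 70.2 and 109 in WT muscles. The groups were well apart, and its call held without each library (-0.74, SE 0.12, adjusted p = 0.013). It overlaps Nop56 on the other strand. Dlst, of the 2-oxoglutarate dehydrogenase complex, had 68.9, 67.7, 70.7, 67.8 and 67.2 scaled TPM in MKO and 94.0, 91.9, 84.8 and 123 in WT muscles (-0.51, adjusted p = 0.032, lost without any MKO replicate or WT replicates 1 or 2, with an adjusted p of up to 0.0849, and -0.18, adjusted p = 0.204 as deposited).

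**Figure D2:**
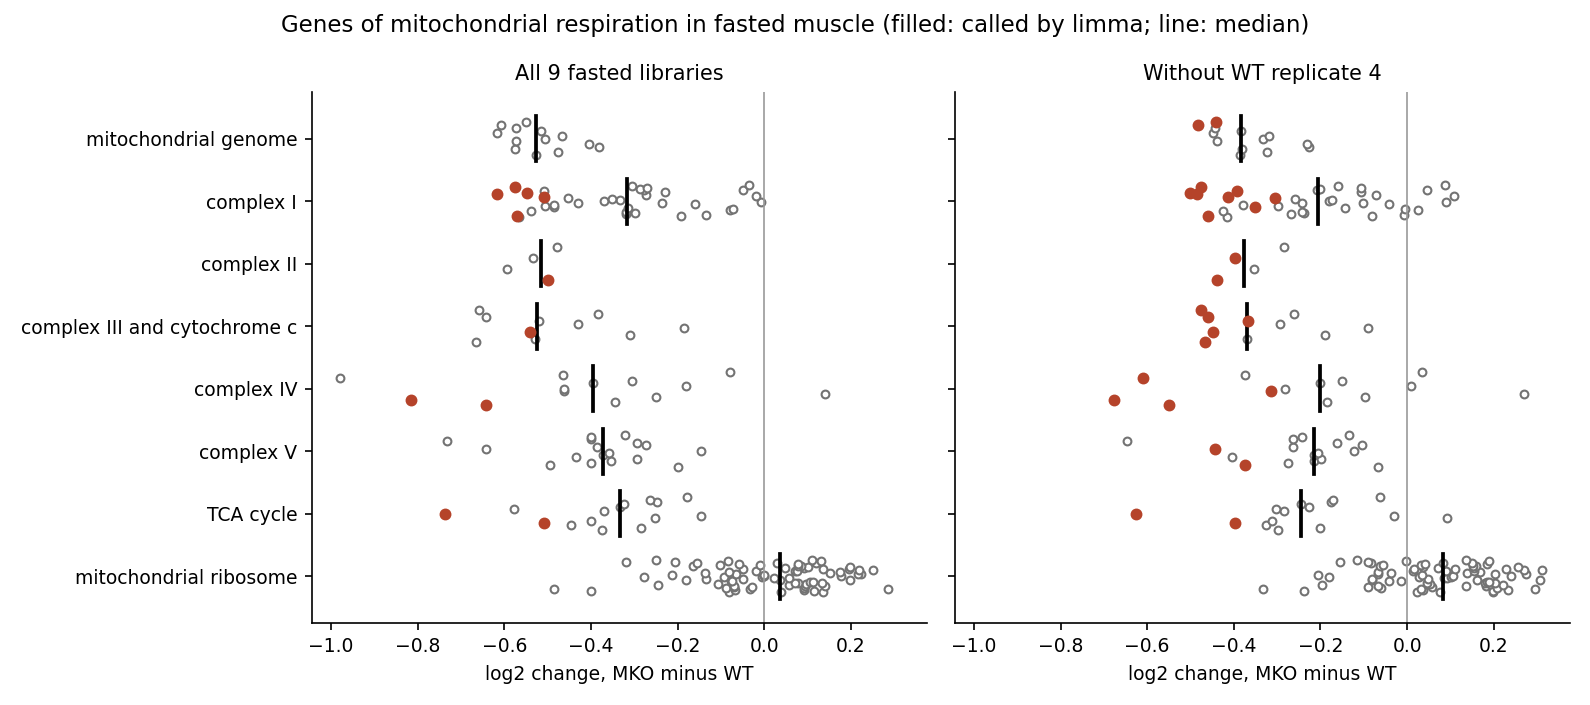
The log2 change (MKO minus WT, fasted) of each gene of the respiratory complexes, the tricarboxylic acid cycle (TCA) and the mitochondrial ribosome, with all 9 libraries at the left and without WT replicate 4 at the right. Filled points are called by limma and black lines are medians, which lie between -0.53 and -0.32 for the respiratory and TCA groups at the left and closer to 0 at the right, while the mitochondrial ribosome stays near 0.

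Promoters of respiratory genes were read because PGC-1β works through factors that bind there. Windows of 300 bases (250 before to 50 after the start, RefSeq, GRCm38.p6) were found for 79 of 95 nuclear respiratory and TCA genes, and both strands were searched. The NRF1 word (GCGCA, any base, then GCGC) stood in 20 of their 89 windows (22.5%), against 10.3% of the windows of genes tested and 4.6% of all windows. The ERR word AAGGTCA stood in 9 of 89 (10.1%), against 3.13% and 4.72%, and the word CCGGAAGTG of GABP in 3 of 89 (3.37%), against 4.31% and 2.03%. Of 7 called genes with a window, Sdha held the NRF1 word, Dlst the GABP word and none the ERR word. These windows are shown because they belong to called members, with the matches in capitals. A match is a description of letters and not a site shown to be bound.
Sdha, chr13:74350191-74350490, minus strand, 3 NRF1 words: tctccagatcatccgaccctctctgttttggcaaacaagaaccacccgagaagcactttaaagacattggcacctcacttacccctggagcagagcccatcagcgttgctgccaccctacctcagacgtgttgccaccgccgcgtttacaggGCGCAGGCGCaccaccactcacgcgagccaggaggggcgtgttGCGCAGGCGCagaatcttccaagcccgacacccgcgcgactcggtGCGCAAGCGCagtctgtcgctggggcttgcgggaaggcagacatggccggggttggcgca
Dlst, chr12:85110583-85110882, plus strand, 1 GABP word on the opposite strand: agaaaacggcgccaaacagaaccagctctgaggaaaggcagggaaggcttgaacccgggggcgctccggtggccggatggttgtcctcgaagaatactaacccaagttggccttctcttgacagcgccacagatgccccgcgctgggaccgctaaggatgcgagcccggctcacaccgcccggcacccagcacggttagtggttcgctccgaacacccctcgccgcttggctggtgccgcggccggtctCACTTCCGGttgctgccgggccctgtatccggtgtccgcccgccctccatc

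Few fuel genes were called. None of 32 genes of fatty acid uptake and oxidation was called with limma (unadjusted p under 0.05 in 1 higher and 1 lower), and their median was -0.15, but 0.08 without WT replicate 4 and 0.18 as deposited. Of 28 genes of glycolysis and glycogen, only Pgam2, the muscle phosphoglycerate mutase, was called, against 1.07% of all genes called higher. It had 771, 826, 838, 700 and 637 scaled TPM in MKO and 550, 437, 580 and 490 in WT muscles (0.55, adjusted p = 0.038, up to 0.118 without MKO replicates 1 to 4 or WT replicates 1 or 2). All MKO muscles were above all WT muscles in Pgam2. The median of the 28 genes was 0.20, with 21 above 0 and 7 below, and 0.05 without WT replicate 4. As deposited their median was 0.52, with 6 called higher and none lower, against 17.5% of all genes called higher. Their summed level was 15098 to 18431 scaled TPM in MKO and 10210 to 15006 in WT libraries. The muscle enolase Eno3 averaged 2669 ± 243 in MKO and 1912.5 ± 279 in WT muscles and was not called (0.49, adjusted p = 0.0799). Its groups did not overlap, and it was called in the TPM as deposited (0.81, adjusted p = 0.0199). Slc2a1, the glucose carrier GLUT1, had a change of -0.65 (adjusted p = 0.0541, and 0.0483 without MKO replicate 1).

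Genes of protein breakdown changed in few places. The muscle ubiquitin ligase genes Trim63 (MuRF1) and Fbxo32 (atrogin-1) stood high in both genotypes. Trim63 had 882, 1333, 570, 711 and 686 scaled TPM in MKO muscles, against 1244, 1261, 1524 and 491 in WT muscles. WT replicate 4 was the lowest of all 9 and MKO replicate 2 was among the WT muscles, and the change was -0.38 (adjusted p = 0.593) and -0.74 without WT replicate 4 (adjusted p = 0.104). Fbxo32 averaged 468 ± 82.3 scaled TPM in MKO and 503 ± 156 in WT muscles (-0.06, adjusted p = 0.918). Of 28 ubiquitin ligases, in a list chosen with earlier results of these data known, Rnf115 and Peli1 fell, against 0.835% of all genes called lower. Peli1 fell by 0.42 on the log2 scale (adjusted p = 0.0293, and up to 0.0967 without any library but WT replicate 4). The median of the list was -0.05, and 0.27 as deposited. Peli1 was at -0.10 in the TPM as deposited and not called (adjusted p = 0.611). There 4 of these ligases were called higher and 1 lower, against 17.5% and 0.209% of all genes. Fbxo40, a ligase of muscle that targets an insulin receptor substrate, had 96.5, 94.7, 91.2, 91.1 and 85.2 scaled TPM in MKO and 118, 114, 117 and 103 in WT muscles. It passed the test without WT replicate 4 alone (-0.34, adjusted p = 0.0209, and -0.30, adjusted p = 0.0699 with it), and was at 0.02 as deposited (adjusted p = 0.905).

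Of 44 deubiquitinases, Usp3 alone was called, against 0.835% of all genes called lower (-0.57, adjusted p = 0.0442, up to 0.12 without any library but MKO replicate 2 and WT replicate 4). As deposited, Usp3 was at -0.25 and not called (adjusted p = 0.307). There 4 deubiquitinases were called higher and none lower, against 17.5% of all genes called higher. None of 36 proteasome genes was called with limma (unadjusted p under 0.05 in 5 higher and 1 lower), and the activator gene Psme4 was without WT replicate 4 (-0.38, adjusted p = 0.0406, and 0.183 with it, and at 0.03 as deposited, adjusted p = 0.894). None of 34 autophagy and lysosome genes was called with limma (unadjusted p under 0.05 in 1 higher and 3 lower). Of 77 cytosolic ribosomal protein genes, 63 lay above 0, with a median of 0.14 (0.47 as deposited and 0.01 in TPM over nuclear genes alone). Of these 1, Rpl35, was called (0.34, adjusted p = 0.0442, up to 0.133 without any library but WT replicate 4), against 1.07% of all genes called higher. At an unadjusted p under 0.05 with limma 18 were higher and 1 lower. In 8 every MKO library was above every WT library (4.24% of all genes tested). As deposited 33 of the 77 were called higher and none lower, against 17.5% of all genes called higher. Ribosomal protein genes have many processed copies in the genome, and Rpl35 overlaps Arpc5l, so its reads may be shared.

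Signals that control muscle mass were led by Smad3, a transducer of myostatin and TGF-β signals, which rose. It had 12.2, 11.2, 10.3, 10.7 and 12.4 scaled TPM in MKO muscles, against 7.37, 6.30, 8.57 and 8.39 in WT muscles. The groups did not overlap (0.57, adjusted p = 0.023, and 0.62, adjusted p = 0.0156 without WT replicate 4), and the call was lost without MKO replicates 1, 4 or 5 or WT replicates 1 or 2 (adjusted p up to 0.0645). Mstn, the gene of myostatin, which restrains muscle growth, had 42.1, 40.0, 36.4, 50.9 and 41.7 scaled TPM in MKO and 55.8, 72.0, 66.1 and 21.3 in WT muscles. WT replicates 1 to 3 were above all MKO muscles and WT replicate 4 was below them, so the change was -0.22 in all 9 libraries (adjusted p = 0.756) and -0.61 without WT replicate 4 (adjusted p = 0.0198). In the TPM as deposited it was 0.11 (adjusted p = 0.818). Tgfbr3, a coreceptor of TGF-β, was likewise called without that library alone (-0.53, adjusted p = 0.02, and -0.39, adjusted p = 0.163 with it). Of 28 genes of this family 1 was called higher and none lower (1.07% and 0.835% of all genes). Without WT replicate 4 these counts were 1 and 4 (1.65% and 2% of all genes).

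None of 25 FoxO, insulin and IGF genes was called with limma (3 lower at an unadjusted p under 0.05), and Foxo1 (0.34), Foxo3 (0.02) and Foxo4 (-0.06) had adjusted p of 0.602, 0.976 and 0.778. Among 16 genes of the glucocorticoid receptor and its targets Mt2 alone was called, against 1.07% of all genes called higher, and the median was 0.20. Without WT replicate 4 the targets Tsc22d3 (0.51, adjusted p = 0.0456) and Mt1 (0.56, adjusted p = 0.0331) were called too (adjusted p = 0.0546 and 0.0799 with it), against 1.65% of all genes called higher. The mTOR inhibitor gene Ddit4 had 221, 270, 181, 245 and 162 scaled TPM in MKO and 173, 90.9, 61.5 and 37.7 in WT muscles. WT replicate 1 was within the range of MKO muscles, and the change of 1.44 was not called (adjusted p = 0.0664, and 0.0145 without WT replicate 1). None of 23 genes of AMPK and protein kinase A was called with limma (unadjusted p under 0.05 in 4 higher and 1 lower), and without WT replicate 4 the cAMP phosphodiesterase genes Pde7a (-1.02, adjusted p = 0.00794) and Pde4b (0.56, adjusted p = 0.0447) moved in opposite directions (adjusted p = 0.0899 and 0.0688 with it). Bhlhe40, a repressor of the circadian clock, fell (-0.60, adjusted p = 0.023, up to 0.0678 without MKO replicates 1, 2, 4 or 5 or WT replicate 2, and 0.0926 as deposited), as 1 of 17 clock genes, against 0.835% of all genes called lower.

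Nfatc1 is a transcription factor that calcineurin sends to the nucleus when calcium rises. Its own transcript did not pass the test (-0.15, adjusted p = 0.537), and none of 22 genes of calcineurin and NFAT did with limma (unadjusted p under 0.05 in 1 higher and 2 lower). Of 6 genes that the study predicted as Nfatc1 targets, 5 were measured well enough to test, and all 5 lay above 0 with a median of 0.67. The study chose them on these samples, so their direction is not independent evidence. Nos1 (chr5:117781032-117958840), the neuronal nitric oxide synthase of the fiber membrane, was the called member. It had 10.9, 9.33, 10.3, 11.4 and 10.4 scaled TPM in MKO muscles, against 6.82, 6.06, 6.24 and 5.41 in WT muscles. The groups were apart in every library (0.76, SE 0.09, adjusted p = 0.00279), and the call held without each of the 9. Mettl11b passed the test without WT replicate 4 alone (0.70, adjusted p = 0.0259, and 0.60, adjusted p = 0.0688 with it), and Pomk (0.67, adjusted p = 0.0625) and Sh3kbp1 (0.52, adjusted p = 0.122) did not.

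Several lists with no call had calls in the TPM as deposited, in which 17.5% of all genes were called higher. There 3 of 32 genes of fatty acid uptake and oxidation, 7 of 36 of the proteasome, 8 of 34 of autophagy and the lysosome, 1 of 25 of FoxO, insulin and IGF, 7 of 23 of AMPK and protein kinase A, 4 of 22 of calcineurin and NFAT and 2 of 17 coactivators and partners were called higher, and none lower. Of 12 fast fiber genes 4 were called higher there and none lower. No protein gene of the mitochondrial genome, no nuclear complex V gene and no slow fiber gene was called there. All 5 predicted Nfatc1 targets tested were called higher there.

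The core NFAT word TGGAAAA stood in 6.73% of all promoter windows, 4.62% of those of genes tested and 5.1% of those of genes called higher. The windows of Nos1 and Ppargc1a are shown because both belong to the predicted targets, with the word in capitals on the opposite strand, at -86 and -240 from the RefSeq start of each window. The word was not counted over the other predicted targets, so these windows do not describe that list. For Nos1 that start lies inside the span of the gene given above and not at its first base.
Nos1, chr5:117866589-117866888, plus strand: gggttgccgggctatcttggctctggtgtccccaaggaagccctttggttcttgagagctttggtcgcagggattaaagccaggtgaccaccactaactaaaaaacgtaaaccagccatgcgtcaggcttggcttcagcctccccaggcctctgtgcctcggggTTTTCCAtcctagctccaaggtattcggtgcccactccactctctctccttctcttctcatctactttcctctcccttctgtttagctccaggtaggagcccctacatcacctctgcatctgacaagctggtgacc
Ppargc1a, chr5:51567676-51567975, minus strand: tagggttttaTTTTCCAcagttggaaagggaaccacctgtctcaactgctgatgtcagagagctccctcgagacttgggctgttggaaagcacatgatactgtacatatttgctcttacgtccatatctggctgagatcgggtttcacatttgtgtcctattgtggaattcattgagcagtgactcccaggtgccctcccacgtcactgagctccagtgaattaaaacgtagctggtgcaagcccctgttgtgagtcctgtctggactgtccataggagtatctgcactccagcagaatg

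Slow fiber genes overlapped widely between the genotypes. Myh7, the myosin of slow fibers, had 14.7, 24.8, 15.7, 7.07 and 25 scaled TPM in MKO muscles, against 34.3, 8.59, 4.71 and 66.2 in WT muscles. WT muscles spanned the whole range of MKO muscles, and none of 11 slow or 12 fast fiber genes was called with limma (3 fast ones were higher at an unadjusted p under 0.05). The median change of slow fiber genes was -0.14 in all 9 libraries and 0.50 without WT replicate 4. Of the 12 fast fiber genes 10 lay above 0, with a median of 0.22 (0.12 without WT replicate 4 and 0.55 as deposited). In 2 of these 12 every MKO library was above every WT library (4.24% of all genes tested). In bulk muscle fewer cells of a type and less RNA per cell cannot be told apart.

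Actc1 (chr2:114047282-114053548), the actin of heart and developing muscle, had 701, 1015, 917, 957 and 752 scaled TPM in MKO muscles, against 160, 256, 663 and 176 in WT muscles. WT replicate 3 came close to the lowest MKO muscle (1.71, SE 0.34, adjusted p = 0.0322). The call was lost without any MKO replicate or WT replicates 1 or 2 (adjusted p up to 0.0938), and held without WT replicate 4 (1.51, adjusted p = 0.0426). Its coding sequence is close to that of Acta1, which was far more abundant, so the split of reads between them is uncertain. Myf6, a myogenic transcription factor of adult fibers, had 107, 98.8, 95.9, 105 and 120 scaled TPM in MKO and 74.6, 66.7, 78.2 and 60.2 in WT muscles. No MKO muscle was as low as any WT muscle (0.59, adjusted p = 0.0154, and 0.0547 without WT replicate 2). Both were the called genes, 2 higher and none lower, among 14 of embryonic, cardiac and regenerating muscle, against 1.07% of all genes called higher. The median of that list was 0.10, with 8 above 0 and 6 below.

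Of 28 genes of the extracellular matrix 4 were called lower and none higher, against 0.835% of all genes called lower, and the median of the list was -0.08 with 10 above 0. Col1a2 (chr6:4504814-4541544), a chain of type I collagen, had 14.8, 13.6, 17.3, 16.2 and 16.8 scaled TPM in MKO muscles, against 27.7, 20.2, 25.4 and 29.8 in WT muscles (-0.70, adjusted p = 0.0161). Lox, the enzyme that crosslinks collagen, had 11.2, 12.2, 9.0, 10.8 and 10.3 scaled TPM in MKO and 17.0, 16.3, 18.7 and 15.4 in WT muscles (-0.65, adjusted p = 0.0106). Neither group reached the other in Col1a2 or Lox, and both calls held without each library. Col1a1 (-0.64, adjusted p = 0.0291) and Sparc, a collagen-binding matrix protein (-0.46, adjusted p = 0.0336), fell in all 9 libraries and lost their calls without 6 of them (MKO replicates 1, 2, 4 and 5 and WT replicates 1 and 3, adjusted p up to 0.0955). Both chains of type I collagen were thus called, and the other 9 collagen genes of the list were not. Without WT replicate 4 the list had 4 called lower and 1 higher, Col15a1 (0.45, adjusted p = 0.0407), against 2% and 1.65% of all genes. In the TPM as deposited none of the 4 genes called lower in all 9 libraries was called, Col1a2 coming nearest (-0.38, adjusted p = 0.0616). There 6 other genes of the list were called higher, against 17.5% of all genes, and the median of the list was 0.24.

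Markers of tendon summed to 58.8 to 80.0 scaled TPM in MKO and 78.1 to 127 in WT libraries, so the ranges overlapped. All 3 tendon markers tested lay below 0 (median -0.63, and -0.30 as deposited). Of these Thbs4 was called (-0.59, adjusted p = 0.019, up to 0.0603 without MKO replicates 4 or 5, and 0.226 as deposited). The part of tendon tissue in the collagen result was not tested. The fibroblast markers, Col1a1 among them, summed to 658 to 756 in MKO and 641 to 783 in WT libraries. No marker of endothelium, macrophages, adipocytes, red blood cells, satellite cells, Schwann cells or smooth muscle was called, and the adipocyte markers summed to 16.8 to 158 scaled TPM in MKO and 16.3 to 91.2 in WT libraries. All markers tested lay below 0 for endothelium (6), red blood cells (5), Schwann cells (4) and smooth muscle (5). Their medians were -0.16, -0.31, -0.46 and -0.28, and 0.16, 0.02, -0.15 and 0.04 as deposited. Of 6 macrophage and 6 adipocyte markers 5 each lay above 0, and 1 of 3 satellite cell markers did.

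**Figure D3:**
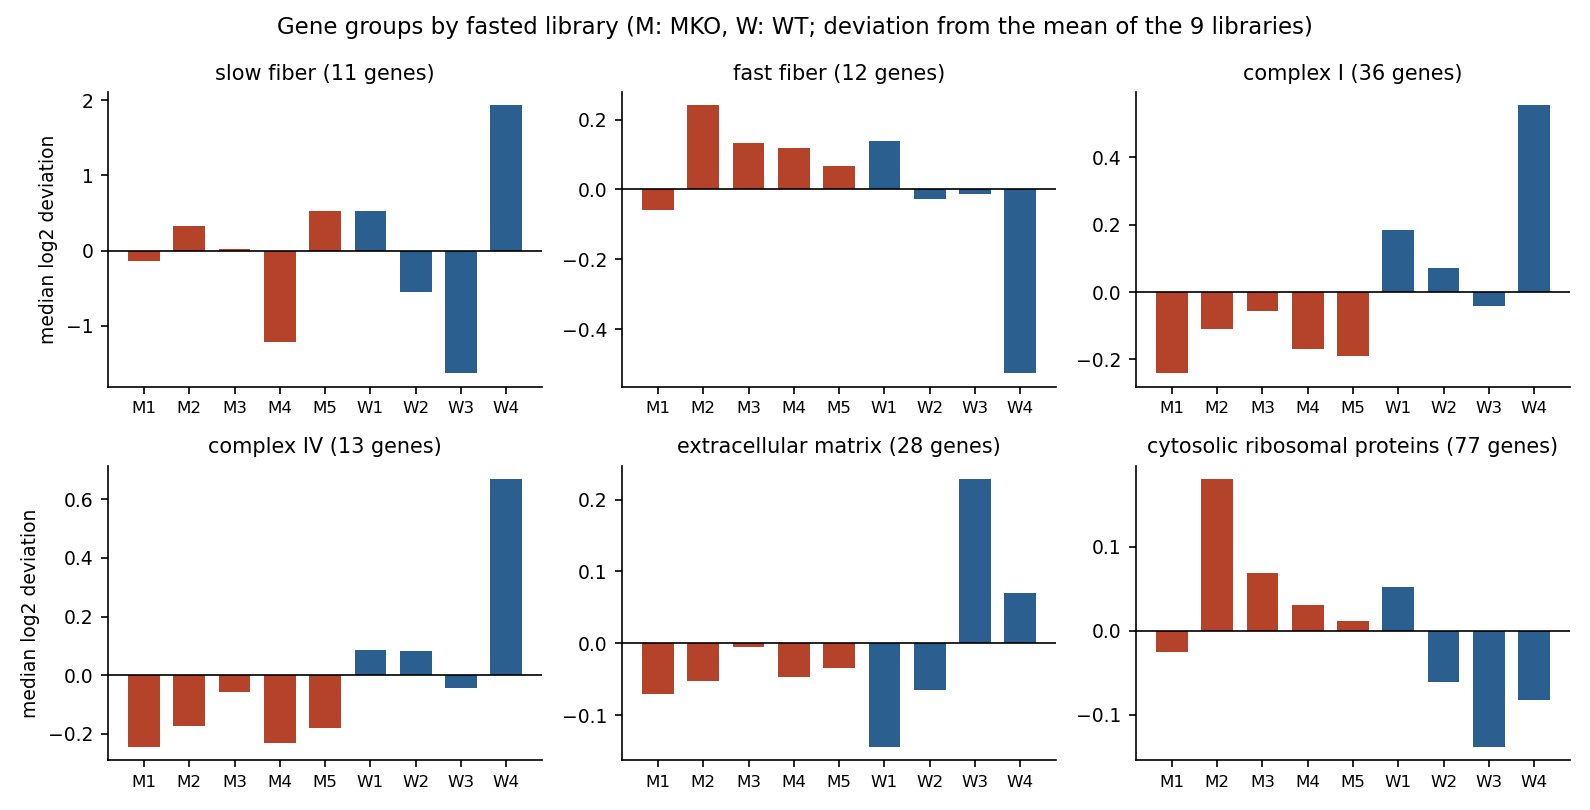
Median log2 deviation of 6 gene groups from the mean of the 9 fasted libraries, by library (M1 to M5, MKO; W1 to W4, WT; each panel with its own scale around 0). WT replicate 4 is at 1.93 in slow fiber genes and -0.53 in fast fiber genes, and at 0.55 in complex I, where the MKO libraries lie between -0.24 and -0.06 and the other WT libraries between -0.04 and 0.18.

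Some called genes outside these groups were chosen after their values were seen. Dmd, the gene of dystrophin, which ties the fiber to its matrix, had 5.12, 5.61, 6.20, 6.64 and 6.78 scaled TPM in MKO and 11.2, 9.51, 9.52 and 9.38 in WT muscles. Dystrophin transcripts were below all WT muscles in every MKO muscle (-0.70, adjusted p = 0.00779). Tmem38b, a cation channel of the sarcoplasmic reticulum, averaged 20.7 ± 2.21 scaled TPM in MKO and 33.1 ± 2.49 in WT muscles (-0.68, adjusted p = 0.00737). Among increases were the cell surface proteoglycan Sdc4 (0.67, adjusted p = 0.00324), the interleukin subunit Il12a (1.31, adjusted p = 0.00411), the flagellin receptor Tlr5 (1.56, adjusted p = 0.0125), the metalloproteinase inhibitor Timp4 (0.69, adjusted p = 0.0118) and the secreted phospholipase Pla2g5 (2.31, adjusted p = 0.00741). Il12a, Tlr5 and Pla2g5 were low, with means of 3.18, 1.55 and 2.93 scaled TPM in MKO and 1.25, 0.481 and 0.447 in WT muscles. The calls of these 7 genes held without each of the 9 libraries, and Dmd and Tmem38b were not called in the TPM as deposited (adjusted p = 0.085 and 0.0814).

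The largest changes of all were in 4 unnamed gene models, also chosen after their values were seen. Gm10800 (chr2:98666547-98667301) had 5776, 6953, 10193, 10634 and 9474 scaled TPM in MKO muscles, against 141, 194, 147 and 98.2 in WT muscles. MKO muscles averaged 59.4-fold more, with no overlap (5.89, SE 0.22, adjusted p = 5.57e-08). Gm10801 (chr2:98662237-98664083) was 68.8-fold, Gm21738 (chr14:19415857-19418930) 68.4-fold and the noncoding model Gm26870 (chr9:3000282-3038313) 81.5-fold higher in the mean of MKO than of WT muscles. All 4 calls held without each library. The fed muscles showed the same direction, with 5.16 for Gm10800 (adjusted p = 2.08e-11).

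The 4 models share sequence, with 17.5 to 37.6% of the 25-base words of one transcript found in another, so their TPM may count the same reads and are not independent of each other. The stretch shown next, 54 bases long, stands in the transcripts of all 4 (in the opposite orientation in Gm26870) and is given because it is what these features have in common. It belongs to the major satellite repeat of mouse centromeres, which has very many copies in the genome.
Shared by Gm10800, Gm10801, Gm21738 and Gm26870: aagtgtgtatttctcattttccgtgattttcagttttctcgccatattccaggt

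Summed over the 4 models, the level was 7110, 8407, 12476, 13049 and 11620 scaled TPM in MKO and 169, 230, 172 and 119 in WT libraries. Which locus these reads came from was not tested. Immunoglobulin heavy chain genes were also called. Ighm (chr12:113418558-113422730), the constant region of IgM, had 169, 216, 91.7, 83.3 and 126 scaled TPM in MKO and 26.5, 29.7, 44.4 and 22.9 in WT muscles. MKO replicates 1 and 2 were highest and no MKO muscle was within the range of WT (2.10, SE 0.28, adjusted p = 0.00499). Ighg2c, of an IgG subclass, averaged 5.56 ± 1.6 in MKO and 0.36 ± 0.292 in WT muscles (3.82, adjusted p = 0.00183). The lymphocyte markers Cd3e, Cd3g, Cd79a and Cd79b were too low to test and summed to 0.214 to 0.45 scaled TPM in MKO and 0.189 to 0.423 in WT libraries. The light chain gene Igkc stood at 0 to 1.58 in MKO and 0.307 to 0.897 in WT libraries.

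**Figure D4:**
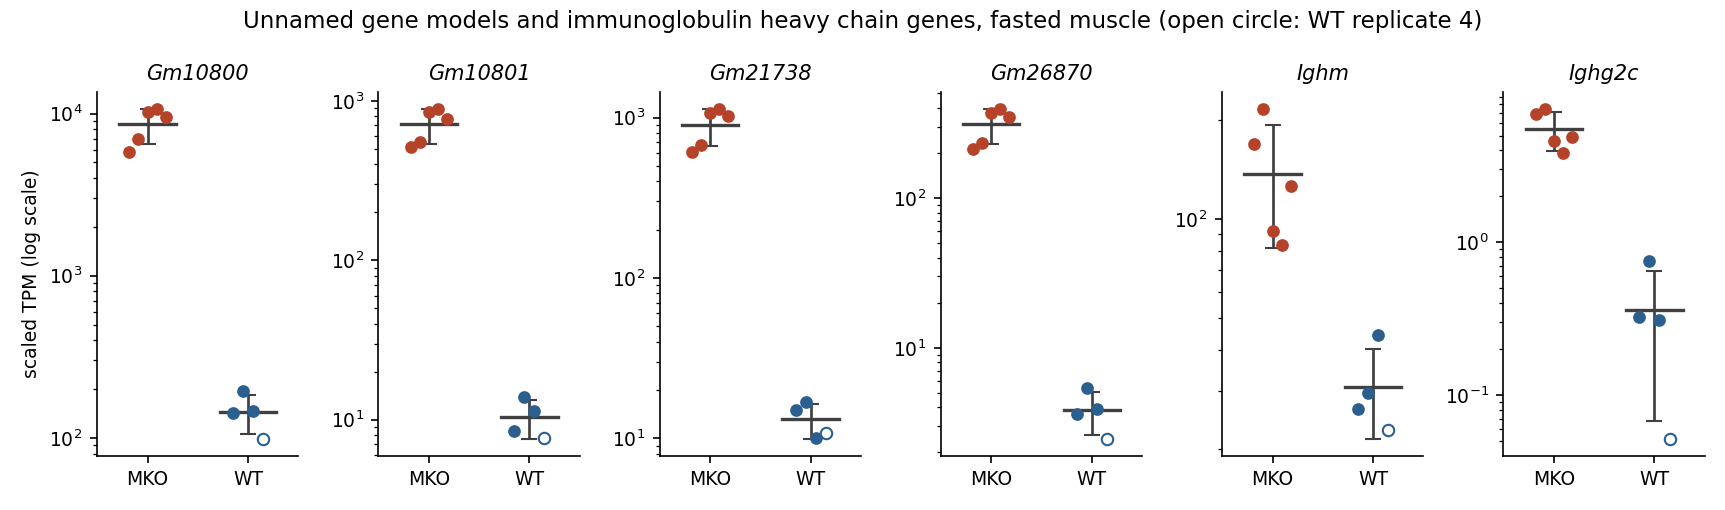
Scaled TPM of 4 unnamed gene models and 2 immunoglobulin heavy chain genes on log axes. Points are libraries (5 MKO at the left, 4 WT at the right, WT replicate 4 open), and bars give the mean ± SD. In Gm10800 the MKO libraries lie at 5776 or more and the WT libraries at 194 or less.

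The same genotypes were compared in fed muscle, with other mice, in 1 fit of all 18 libraries (12111 genes), to set each fasted change beside its fed value. In fed muscle 134 genes were called (1.11%), 35 higher (0.289%) and 99 lower (0.817%) in MKO. A fit of 18 libraries has more power than one of 9, so this count cannot be set beside the 219 of fasted muscle. With all 18 libraries in a fit of the 11499 genes, 630 fasted differences were called (335 higher, 295 lower). The test of the difference between the fasted and the fed change called 15 genes (0.124%), 12 with a larger (0.0991%) and 3 with a smaller value (0.0248%) in fasted muscle, 38 without WT replicate 4, and 4 in the TPM as deposited. Maf was one of these. It changed by 0.82 in fasted and -0.44 in fed muscle, where it averaged 49 ± 9.34 scaled TPM in MKO and 65.3 ± 4.76 in WT muscles, and the difference was 1.26 (adjusted p = 0.0201). Plcd4 changed by 0.88 in fasted and -0.18 in fed muscle, where it averaged 31.3 ± 4.63 scaled TPM in MKO and 35.1 ± 3.8 in WT muscles (difference 1.06, adjusted p = 0.0331). Slc35f5 changed by -0.88 in fasted and -0.14 in fed muscle (difference -0.74, adjusted p = 0.0238).

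For other leading genes the difference was not called. Mid1ip1 changed by -1.22 in fasted and 0.45 in fed muscle, where it averaged 8.98 ± 3.62 scaled TPM in MKO and 6.04 ± 0.551 in WT muscles (difference -1.68, adjusted p = 0.0755). Car3 changed by 1.26 in fasted and 0.46 in fed muscle (difference 0.79, adjusted p = 0.121). Adamts1 changed by -0.97 in fasted and -0.07 in fed muscle (difference -0.91, adjusted p = 0.0506), and Nos1 by 0.76 in fasted and 0.27 in fed muscle (difference 0.49, adjusted p = 0.276). Genes called in both states included Slc40a1 (-0.92 in fasted and -0.93 in fed muscle), Plin3 (0.81 and 1.05), Gamt (1.38 and 0.76), Gfer (0.89 and 0.54), Actc1 (1.71 and 1.64), Amy1 (-0.89 and -0.78), Cox5b (-0.81 and -0.66) and Idh3b (-0.74 and -0.58). A p above the threshold does not show that the 2 states are alike.

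**Figure D5:**
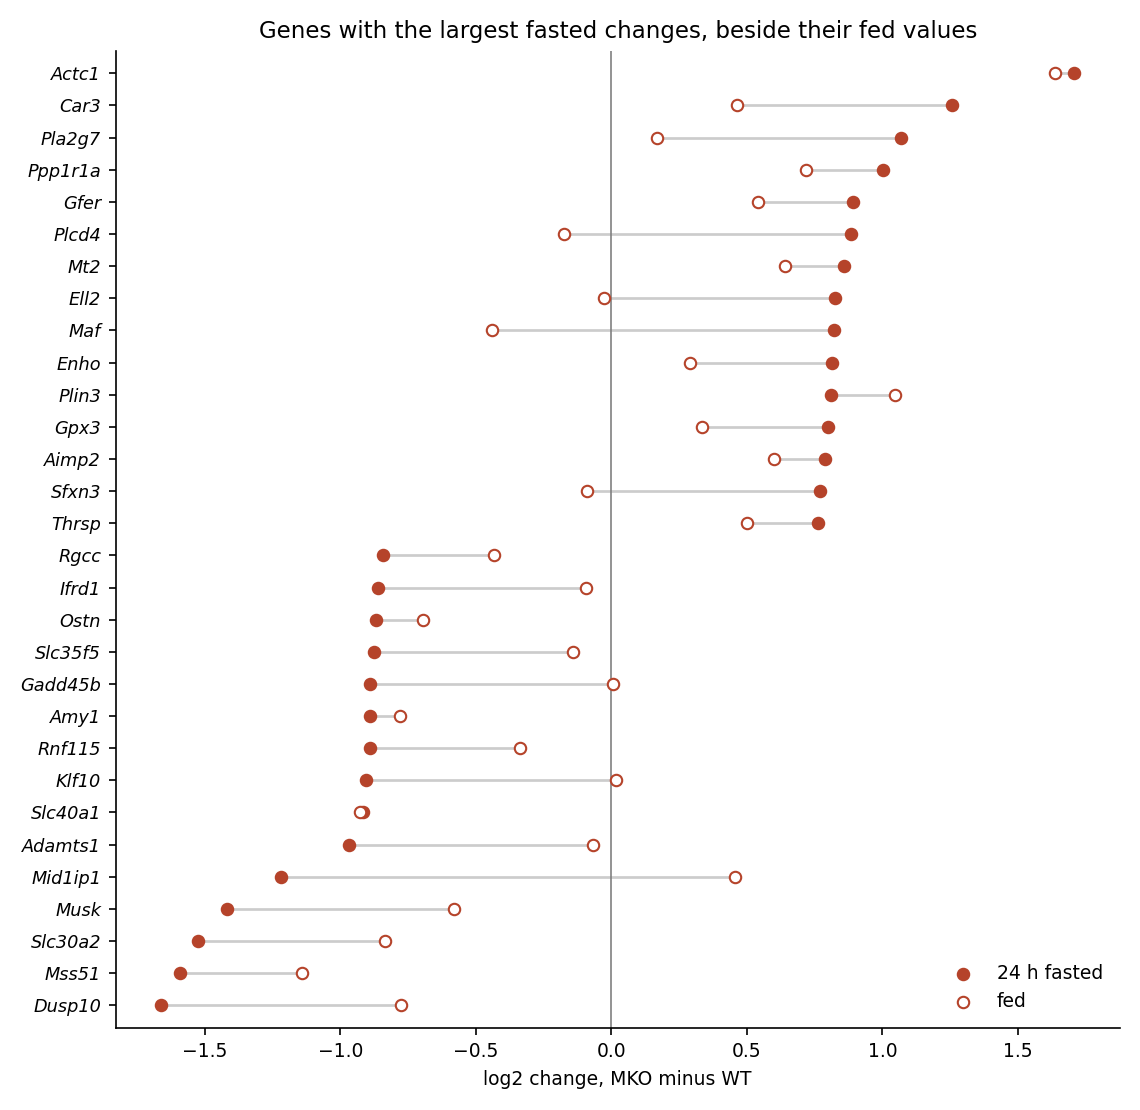
The log2 change (MKO minus WT) of the 30 genes with the largest fasted changes among those that met the naming rule, with fasted muscle as filled and fed muscle as open points. Slc40a1 and Actc1 have nearly the same value in both states, while Maf, Plcd4 and Mid1ip1 lie on opposite sides of 0.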

How the data were processed

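Poly(A) RNA of fasted muscle was sequenced in 5 MKO and 4 WT libraries. The authors mapped single reads to GRCm38 (mm10) and deposited TPM per gene, made with the CLC Genomics Workbench. Its version, annotation and settings were not given in the sources used here. Columns of log2 fold changes and FDR p-values by the authors, for 4 comparisons, were not used. Of 46983 genes, 46488 (98.9%) matched the GRCm38 annotation (GENCODE).

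The 11499 genes that reached 0.5 TPM in 4 or more of the 9 libraries were scaled to equal medians, and log2(scaled TPM + 0.1) was tested in R 4.3.3 by limma 3.58.1 (eBayes with trend, two-sided, 7 residual and 4.17 prior degrees of freedom, Benjamini-Hochberg over all genes tested). The mitochondrial share was compared by exact permutation. The fits were tested on simulated data. No library repeated another (36 pairs, with median log2 differences of 0.129 or more). The labels call the replicates biological. The deviations of same-numbered libraries from their group means had correlations of -0.147, 0.0526, -0.114 and -0.128, and those of other pairs -0.129 to 0.163. This gave no sign of pairing by number, though with so few libraries a weak shared effect could be missed.

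The members and gene lists were chosen with earlier results of these data known. The text may name the 15 largest changes in each direction among genes with a name, a mean of at least 5 scaled TPM, no overlap between groups and a call with and without WT replicate 4, in each list the 6 members of smallest p (all members of lists of 12 or fewer), genes that the study names, and genes that decide a check. Some genes that this rule names are not reported here. The alternatives were TPM as deposited (also without WT replicate 4), quantile normalization, TPM over nuclear genes alone, the replicate number as a block, a minimum of 2 TPM or none, pseudocounts of 0.01 and 1, all 18 libraries in the fit, array weights, a robust prior and leaving out each library.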

Additional observations from a re-analysis of the deposited data

Results flagged for a closer look

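Single libraries lay far from the others of their group in 11 of 214 groups of values (5.14%), and chance alone flags about 1 in 20 groups. WT replicate 4 was the library apart in 5 of these. It was highest in Ndufb8, a complex I subunit (81.7 scaled TPM, against 52.7 to 56.1 in the other WT libraries), mt-Nd5 (47880, against 33210 to 34110), Atp5g3 (201, against 107 to 122) and the clock repressor Bhlhe40 (20.0, against 14.9 to 15.7), and lowest in Ckm (7954, against 11300 to 11920). In WT replicate 1 Dmd stood at 11.2 scaled TPM, against 9.38 to 9.52 in the other WT libraries.

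Among MKO libraries, replicate 2 was high in Aimp2 (59.6 scaled TPM, against 43.7 to 47.3 in the others) and in Usp3 (4.8, against 3.51 to 3.80). Replicate 3 was high in Bhlhe40 (13.1, against 9.96 to 10.5), and replicate 4 in Rpl35 (118, against 108 to 110) and in Pomk, a kinase of dystroglycan (3.98, against 2.87 to 3.01).

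The change between MKO and WT differed between fasted and fed muscle by the test of that difference in Maf (1.26, limma adjusted p = 0.0201), Plcd4 (1.06, adjusted p = 0.0331) and Slc35f5 (-0.74, adjusted p = 0.0238). Fed and fasted muscles came from different mice.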

How the results depend on the processing

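Read depth is unknown from TPM, and 1 WT muscle of 4 stood apart in fiber genes and mitochondrial share. Called genes numbered 219 (123 higher, 96 lower). They numbered 2034 (2010 higher, 24 lower) in TPM as deposited, 1733 (1654 higher, 79 lower) as deposited without WT replicate 4, 483 (400 lower) in TPM over nuclear genes alone, 121 (69 higher, 52 lower) with no filter, 630 (335 higher, 295 lower) with all 18 libraries in the fit and 579 (304 higher, 275 lower) with array weights. Leaving out single libraries gave 85 to 420 calls (51 to 190 higher, 34 to 230 lower), the fewest without MKO replicate 4 and the most without WT replicate 4. The difference in mitochondrial share was -10.3 to -6.76 points over these, and -5.31 without short mitochondrial genes. The 15 differences between fasted and fed changes became 4 as deposited and 38 without WT replicate 4. Of 2221 alternative values of named genes, 1772 kept direction and call, 323 lost the call, 102 gained it and 24 turned, with no call in either setting. As deposited, Fbxo40 (0.024), Fbxo32 (0.26), Psme4 (0.032), Mstn (0.11), Foxo4 (0.27), Nfatc1 (0.17) and Myh7 (0.19) turned, and without WT replicate 4 too Foxo4 (0.13) and Myh7 (0.71). Foxo3 turned over nuclear genes alone (-0.11), with the replicate block (-0.0035) and with array weights (-0.12), Myh7 with array weights (0.32), and Myh4 (-0.00071) and Eno3 (-0.0052) with quantile normalization. Leaving out single libraries gave -0.30 to 0.093 for Fbxo32, -0.16 to 0.10 for Foxo3 and -0.76 to 0.50 for Myh7. Of 818 medians of lists, 56 moved beyond their spread, 30 of them in TPM as deposited. The cause of these changes was not tested.

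With the replicate number as a block, which leaves 3 residual degrees of freedom, 18 genes were called (12 higher, 6 lower), and 3 differences between fasted and fed changes. Same-numbered libraries gave no sign of deviating together, but that check could miss a weak shared effect, so pairing by number is not excluded.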
